A study of Homo sapiens with 4 samples.

Results

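Interferon-stimulated genes were followed in sorted SUM159 breast cancer cells, as a list of 43 genes from the antiviral and signalling arms of the interferon response. A gene's values came from the probe sets that the array annotation gives to that gene alone. Of the 43 genes, 42 had such a probe set, 70 probe sets in all, out of 54675 on the array, which stand for 19775 genes in the same way. STAT2, a transcription factor of interferon signalling, had none and was not analysed here. On at least 1 array 38 of the 42 reached a log2 level of 6, against 12365 of all genes. The other 4 (OAS1, OAS2, MX2 and CMPK2) lay under 6 in every array and give no direction. Where a gene had several probe sets, the brightest by its mean over all 4 represented it. A single probe set stood behind 21 of the genes.

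Type I interferons bind a receptor that activates the kinases JAK1 and TYK2, which phosphorylate transcription factors such as STAT2. With IRF9 these bind the interferon-stimulated response element in the promoters of a large set of genes, whose products sense viral RNA, degrade it, block virus entry or dampen the signal. Interferon gamma has a receptor of its own and acts at a different element, and IRF1 can drive part of the same set. Some tumour cells express part of it without added interferon.

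SUM159 is an established human breast cancer line of mesenchymal, hormone receptor-negative character. All cells in the study carried pTRIPZ, a doxycycline-inducible vector, with the microRNA miR-100. Sorting was by aldehyde dehydrogenase (ALDH) activity, which enriches stem-like breast cancer cells, and gave ALDH+ and ALDH- fractions, each of which was kept in suspension without (control) or with DOX. The stated aim was to find what miR-100 acts on in stem-like and other breast cancer cells. The 4 groups were ALDH+ control, ALDH+ DOX, ALDH- control and ALDH- DOX, with 1 array each, so that differences between single arrays lack any replicate check. Titles and the treatment text give 10 h and doxycycline, whereas the sample descriptions give 13 h and doxorubicin, a different drug. Cells without the construct that received DOX were not analysed here, and neither was the mature miR-100.

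The 4 arrays had medians between 6.18 and 6.22, so a level of 6 lies near the middle of all probe sets. All 6 markers of mesenchymal breast cancer cells were measured, with VIM between 13.64 and 13.79, but the luminal list was split: of its 8 genes ESR1, PGR, CDH1 and EPCAM stayed under 6, whereas KRT18 was between 11.97 and 12.45, KRT8 between 9.93 and 10.51, ERBB2 between 9.22 and 10.16, and KRT19 reached 6.46 in ALDH- DOX. ALDH1A1, an enzyme that contributes to the sorted activity, stood at 11.77 in ALDH+ control, 10.66 in ALDH+ DOX, 10.72 in ALDH- control and 10.86 in ALDH- DOX, higher in ALDH+ in the control pair alone. ALDH1A3, a related enzyme, was at 6.48, 6.64, 5.86 and 7.79, and so lower in ALDH+ by -1.15 in the DOX pair, against the sort label. The probe sets at the 3′ and 5′ ends of 18S ribosomal RNA were lower in ALDH+ DOX than in ALDH+ control by -1.90 and -1.94, and the middle one by -0.30. Their part in any difference that involves ALDH+ DOX was not tested. Of 13 leukocyte markers with a probe set, 12 were under 6 in every array, PTPRC, the pan-leukocyte CD45 gene, among them. The exception was the B cell gene MS4A1, at 4.48, 6.21, 4.25 and 3.74 in the order above. The summed linear level of the 13 was 399 in ALDH+ control, 416 in ALDH+ DOX, 322 in ALDH- control and 337 in ALDH- DOX. Of 5 markers of plasmacytoid dendritic cells, the main interferon-producing blood cells, 4 were under 6 everywhere, TCF4 being the exception, and their sums were 1867.5, 2599.5, 3020.9 and 2783.4. Of 6 fibroblast and endothelial markers 3 were measured (DCN, PECAM1 and PDGFRB), with sums of 2636.5, 1877.8, 4597.8 and 4347.7. The part of these cell types in the results was not tested.

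The promoters below are shown because the results turn on genes that share an element yet differ in direction. IFIT1, RSAD2 and ISG20 were called higher in ALDH+ than in ALDH- cells both without and with DOX, IFIT1 with DOX only as long as levels under 6 are kept as they are, and have an entry in the RefSeq promoter table (GRCh38.p14). IFIT2 and OASL did the same and have no entry. OAS3 and IFI44, which were lower in ALDH+ cells, were added for contrast after their values had been seen. Each run is the 250 bases before an annotated start site, 5′ to 3′ on the strand named. Capitals mark matches on either strand to GAAANNGAA, the core of the interferon-stimulated response element.
IFIT1, chr10:89392373-89392622, plus strand: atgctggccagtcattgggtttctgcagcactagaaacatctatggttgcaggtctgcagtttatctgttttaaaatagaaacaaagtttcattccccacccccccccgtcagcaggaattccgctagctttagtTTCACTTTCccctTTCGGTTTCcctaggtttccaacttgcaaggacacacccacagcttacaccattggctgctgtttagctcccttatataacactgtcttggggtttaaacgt
RSAD2, chr2:6877527-6877776, plus strand: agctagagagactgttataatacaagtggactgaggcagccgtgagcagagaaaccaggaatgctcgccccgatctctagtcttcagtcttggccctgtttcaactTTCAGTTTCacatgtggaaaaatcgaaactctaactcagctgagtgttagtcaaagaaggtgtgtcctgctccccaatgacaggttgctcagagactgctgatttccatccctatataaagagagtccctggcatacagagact
RSAD2, second start site, chr2:6865635-6865884, plus strand: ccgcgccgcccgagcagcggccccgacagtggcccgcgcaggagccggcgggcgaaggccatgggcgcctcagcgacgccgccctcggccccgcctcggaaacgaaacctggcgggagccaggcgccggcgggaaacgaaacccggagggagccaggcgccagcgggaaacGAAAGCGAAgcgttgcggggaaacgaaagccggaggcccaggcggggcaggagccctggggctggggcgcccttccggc
ISG20, chr15:88638766-88639015, plus strand: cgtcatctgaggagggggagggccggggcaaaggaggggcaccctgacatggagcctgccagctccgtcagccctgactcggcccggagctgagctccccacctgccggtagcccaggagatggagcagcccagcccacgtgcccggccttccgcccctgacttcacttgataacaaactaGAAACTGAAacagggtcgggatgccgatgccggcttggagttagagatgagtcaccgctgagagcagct
OAS3, chr12:112938224-112938473, plus strand: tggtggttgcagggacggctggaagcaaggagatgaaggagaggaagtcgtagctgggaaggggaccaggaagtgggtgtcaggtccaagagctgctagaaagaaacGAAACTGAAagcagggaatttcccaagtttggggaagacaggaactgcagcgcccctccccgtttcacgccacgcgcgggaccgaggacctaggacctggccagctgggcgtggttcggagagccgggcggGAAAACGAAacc
IFI44, chr1:78649539-78649788, plus strand: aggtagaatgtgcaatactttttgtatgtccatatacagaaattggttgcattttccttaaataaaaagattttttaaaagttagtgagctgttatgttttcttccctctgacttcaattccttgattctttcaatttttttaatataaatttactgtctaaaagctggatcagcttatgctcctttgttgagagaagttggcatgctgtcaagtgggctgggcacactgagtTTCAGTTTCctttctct

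Counted from the start site at 0, the matches began at -115 and -102 in IFIT1, at -144 and -79 in the RSAD2 promoters, at -69 in ISG20, at -143 and -12 in OAS3 and at -17 in IFI44. Over windows of 300 bases, 250 before and 50 after a start, 25 of 33 members in the table (75.8%) had this core in at least 1 promoter, against 9.86% of all 27305 genes there. The interferon gamma element TTCNNNGAA, read the same on both strands, was in 9 of 33 members (27.3%) and in 9.38% of all genes. In BST2, EPSTI1, IFI27, IFITM1 and MX1 a match to it overlaps a match to the core. The member shares of the elements are therefore not separate counts. The core was found in members of either direction. It was in 8 of the 9 members with an entry that rose in ALDH+ cells in the model described below (IFI35 being the other), in both of those that fell, and in 14 of 19 that did not pass. RSAD2 and its neighbour CMPK2 share 1 match at chr2:6865806-6865814, and PARP9 and DTX3L share 1 at chr3:122564332-122564340. A match is a run of letters and was not measured as a binding site. The induced microRNA, miR-100-5p (chr11:122152275-122152296, minus strand), is shown with its seed, bases 2 to 8, in capitals, since it is what DOX is meant to induce.
miR-100-5p: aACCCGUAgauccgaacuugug

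A group of interferon-stimulated genes was higher in ALDH+ than in ALDH- cells, among them IFIT2, OASL, ISG20, RSAD2 and IFIT1. Few members were lower, a share close to or below that of all genes. Differences are given on the log2 scale, where 1 is 2-fold, and a pair of arrays was called different at 2-fold or more where either array reached 6. In the control arrays 7 of 36 measured members were called higher in ALDH+, where 6.09% of all genes were, and 0 were called lower, where 4.4% were. Their median difference was 0.35 against -0.00 over all genes, and 25 of 36 lay above 0, as did 49.6% of all genes. In the DOX arrays 14 of 37 were called higher (11.4% of all genes) and 2, USP18 and IFI6, lower (5.32%), with a median of 0.61 against 0.08. With DOX, centring each array on its own median gave 9 higher and 4 lower, against 9.22% and 6.91% of all genes. Several called members met the level only through the ALDH+ array, since ALDH- was under 6. These were IFIT1, IFIT2, HERC5 and RSAD2 in the control pair. In the DOX pair they were IFIT1, IFIT2, DHX58, MX1, RSAD2, XAF1 and EPSTI1. USP18 met it only through ALDH- DOX. With levels under 6 set to 6, 7 of 42 were higher without DOX (3.2% of all genes) and 9 with it (6.09%). These shares are over all 19775 genes, and a gene under 6 in every array then has a difference of 0. They are lower in part for that reason and cannot be set against the shares of measured genes above.

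**Figure D1:**
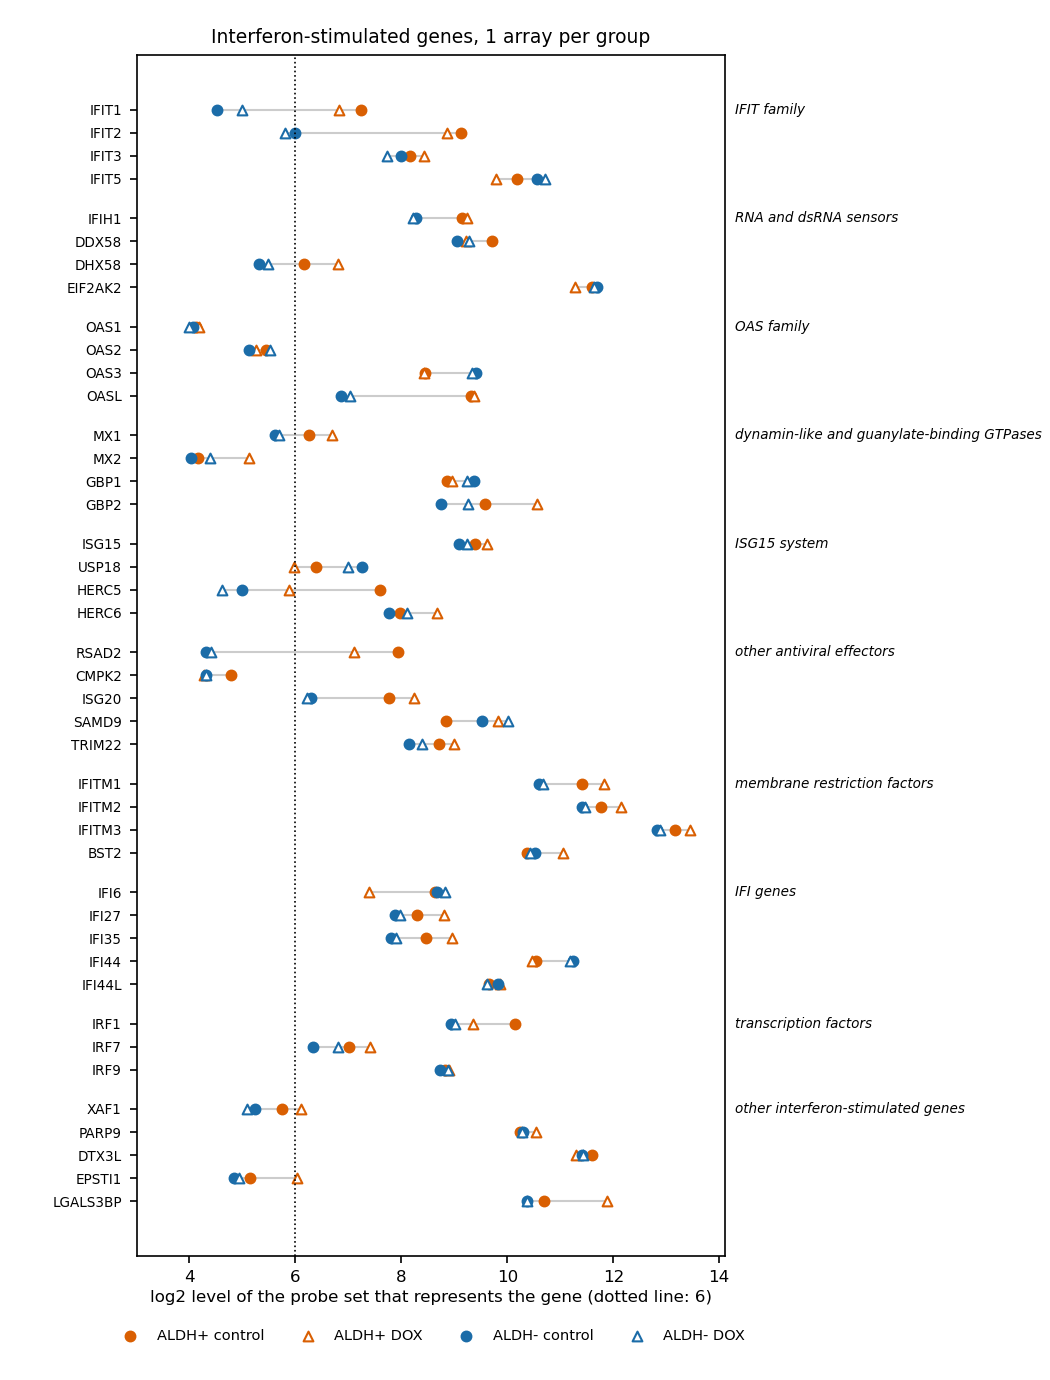
Log2 level of the representing probe set (x axis) of the 42 interferon-stimulated genes that have their own probe set, grouped by role; circles are control and triangles DOX arrays, orange ALDH+ and blue ALDH-, 1 array each, and the dotted line is a level of 6. RSAD2, IFIT2, IFIT1, OASL and ISG20 have both orange points well to the right of both blue ones, whereas OAS3, USP18 and IFI44 have them to the left.

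The pairs of arrays with and without DOX share no array, so the fraction comparison was made in each. The labels do not say that the pairs came from separate sorts or cultures, and the pairs differ in DOX. Their overlap is therefore no check by independent replicates. Both called IFIT1, IFIT2, OASL, RSAD2 and ISG20 higher, which is 5 of the 7 called in control arrays and 5 of the 14 called in DOX arrays. IFIT1, IFIT2 and RSAD2 were under 6 in both ALDH- arrays, and so met the level through the ALDH+ arrays alone. With levels under 6 set to 6, the IFIT1 difference with DOX was 0.83 and no longer a call. Over all genes 574 were called higher in both, 4.82% of those measured in both. Of 35 members measured in both pairs, 30 had the same sign (22 above and 8 below 0), as did 73.5% of all genes. By their representing probe sets, the 5 with opposite signs were DDX58, BST2, IFI44L, PARP9 and DTX3L. Another probe set of DDX58 and another of PARP9 had the same sign in both pairs.

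**Figure D2:**
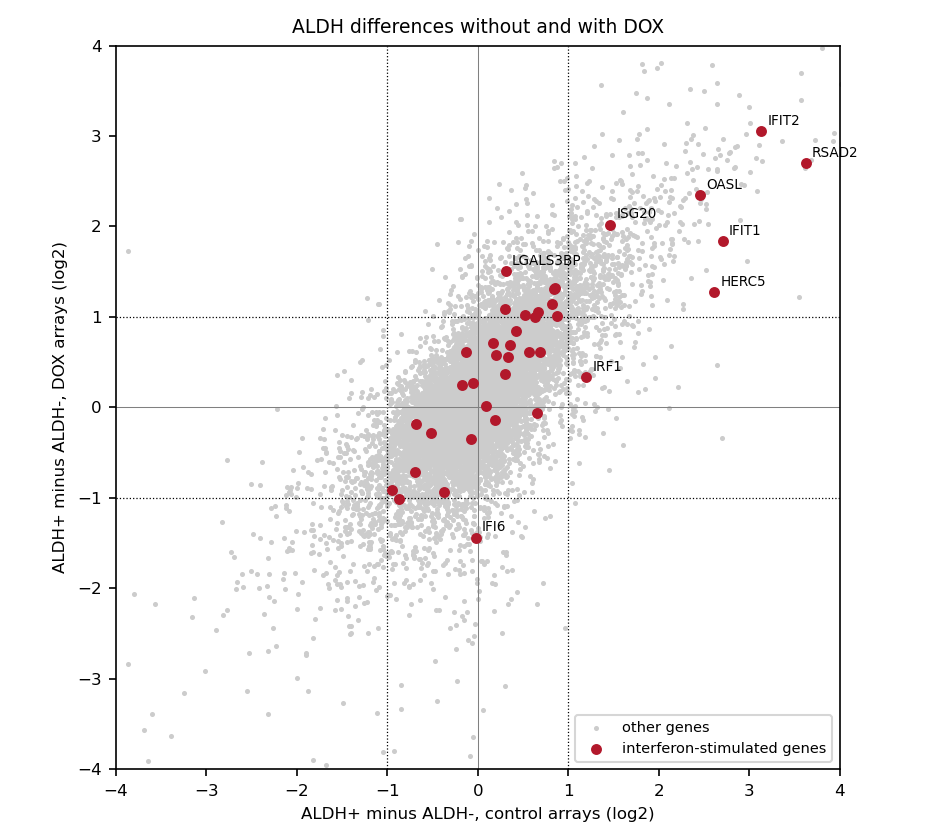
Log2 difference between ALDH+ and ALDH- cells in the control arrays (x axis) and in the DOX arrays (y axis) for all genes that reached 6 on any array, with interferon-stimulated genes in red; dotted lines are at 2-fold, and 13 genes lie outside the axes. IFIT1, IFIT2, OASL, RSAD2, ISG20 and HERC5 lie past 2-fold on both axes, and IRF1 only on the x axis. LGALS3BP and IFI6 are the labelled members past it only on the y axis. IFIH1, DHX58, MX1, GBP2, IFITM1, IFI35, XAF1, EPSTI1 and USP18 are also past it there and are not labelled. HERC5 was under 6 in both DOX arrays and so was not called in that pair.

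An additive model with terms for fraction and DOX, fitted to all 12365 genes with limma, tested the fraction over both pairs. It has 1 residual degree of freedom and treats a DOX response that differs between fractions as error. Nothing in the labels says that the 4 arrays came from separate cultures, so its p-values measure no spread beyond these arrays. With 11.6 prior degrees of freedom, the spread used for a gene came mostly from all genes at a like level. By Benjamini-Hochberg adjusted p, 14 of 38 members rose in ALDH+ cells (13.5% of all genes) and 3, IFI44, OAS3 and USP18, fell (9.58%), with a median of 0.56 against 0.03. With levels under 6 set to 6, no member and no other gene passed in either direction. That setting leaves some genes without any spread, and the part of this in the loss of calls was not tested. Apart from that setting, the calls of DHX58, HERC5, IFIT1, IFIT2, IFITM1, ISG20, OASL and RSAD2 held in every alternative that could be fitted for them, and the other 9 calls were each lost in at least 1 more.

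**Figure D3:**
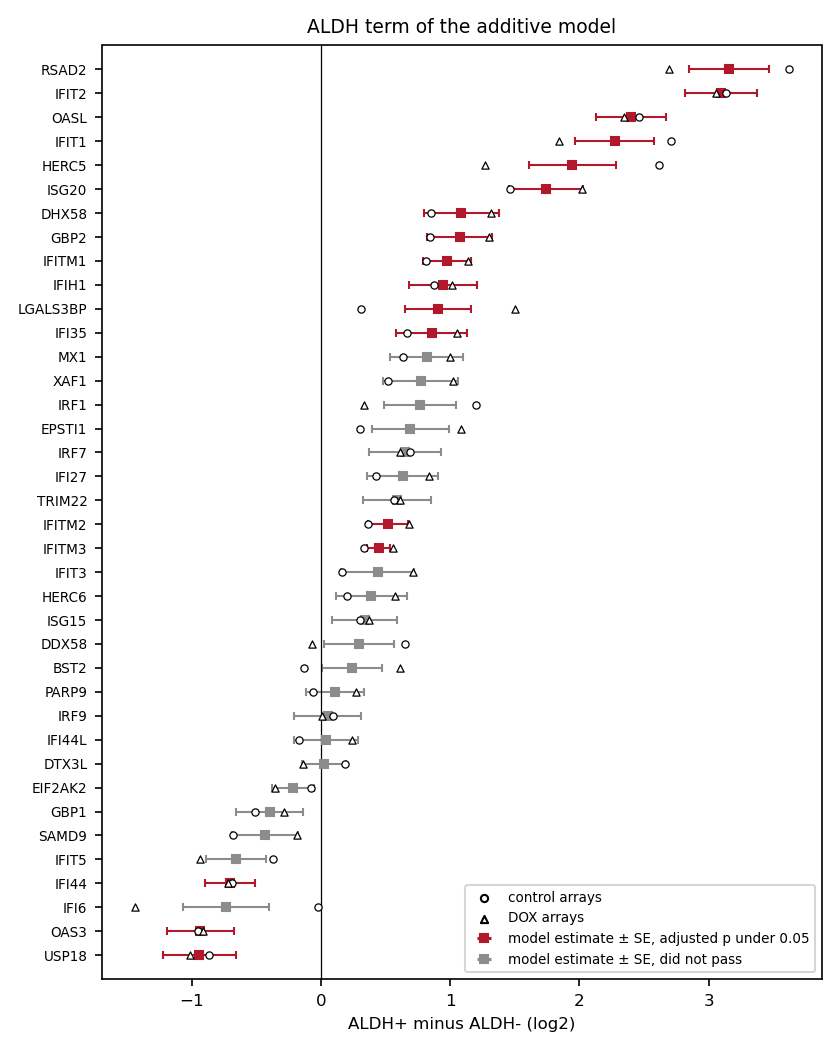
ALDH term of the additive model for the 38 measured interferon-stimulated genes (x axis, log2, ALDH+ minus ALDH-); squares with bars are estimates ± SE, red where the adjusted p was under 0.05, circles are the control pair and triangles the DOX pair. Estimates ran from -0.94 in USP18 to 3.16 in RSAD2, and the pairs lie far apart in LGALS3BP, IFI6 and HERC5.

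The IFIT proteins bind viral RNA or block its translation, and the 4 genes lie in 1 cluster on chromosome 10. IFIT2 stood at 9.12 in ALDH+ control, 8.87 in ALDH+ DOX, 5.99 in ALDH- control and 5.81 in ALDH- DOX. Both ALDH+ arrays were high and both ALDH- arrays were just under 6. The model gave IFIT2 a difference of 3.09 ± 0.28 (SE, limma adjusted p = 1.81e-05). Another IFIT2 probe set, under 6 in every array, differed by 0.79 without and 0.45 with DOX. The mean of both lowered the model estimate to 1.86. IFIT1, whose protein recognises RNA that lacks the methylation of host caps, was at 7.23, 6.83, 4.53 and 4.99 in the same order. Here too the fractions did not overlap, and the low values were under 6. The IFIT1 difference was 2.71 without and 1.84 with DOX, or 1.23 and 0.83 with levels under 6 set to 6, and 2.27 ± 0.31 in the model (SE, limma adjusted p = 0.000289). IFIT3 and IFIT5 lie in the same cluster and did not pass: IFIT3 differed by 0.17 and 0.71, and IFIT5 by -0.37 and -0.94. A second IFIT3 probe set differed by 0.67 and 0.76.

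Among the RNA sensors, IFIH1 (MDA5, a sensor of long double-stranded RNA) stood at 9.15 and 9.24 in the ALDH+ control and DOX arrays and at 8.27 and 8.23 in the ALDH- arrays. The ALDH+ arrays were higher in both pairs, by 0.95 ± 0.26 in the model (SE, limma adjusted p = 0.0218). With the mean of its probe sets, the others of which lie under 6, the estimate was 0.07. DHX58 (LGP2, a regulator of the other sensors) was at 6.17, 6.80, 5.31 and 5.48. Only the ALDH+ arrays reached 6, and the estimate was 1.09 ± 0.29 (SE, limma adjusted p = 0.0172), or 0.48 with levels under 6 set to 6. DDX58 (RIG-I, the sensor of short RNA with a terminal triphosphate) differed by 0.65 without and -0.07 with DOX and did not pass. EIF2AK2, the kinase PKR that halts translation on double-stranded RNA, differed by -0.08 and -0.35 and did not pass either.

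The OAS family went in different directions. OASL, a relative that lacks the enzyme activity and assists RIG-I, stood at 9.32 in ALDH+ control and 9.37 in ALDH+ DOX, against 6.86 and 7.02 in the ALDH- arrays. All 4 arrays were above 6 and DOX made little difference in either fraction, while the fractions differed by 2.40 ± 0.27 (SE, limma adjusted p = 8.83e-05). A second OASL probe set differed by 1.91 and 2.34 in the same direction. OAS3, which makes the oligoadenylate that activates RNase L, stood at 8.45 and 8.43 in the ALDH+ arrays and at 9.41 and 9.34 in the ALDH- arrays. It was lower in both ALDH+ arrays, by -0.93 ± 0.26 (SE, limma adjusted p = 0.0217). Its chromosomal neighbours OAS1 and OAS2, with the same enzyme activity, were under 6 in every array, the highest value being 5.52 for OAS2 in ALDH- DOX.

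Of the large GTPases, MX1, which blocks influenza and other viruses, stood at 6.25, 6.68, 5.62 and 5.68. It reached 6 in the ALDH+ arrays alone, was called in the DOX pair at 1.00 and had an adjusted p of 0.0557 in limma. MX2, next to it on chromosome 21, reached at most 5.13. GBP2, a guanylate-binding protein that acts on intracellular pathogens, was at 9.59 in ALDH+ control, 10.56 in ALDH+ DOX, 8.74 in ALDH- control and 9.25 in ALDH- DOX. Each DOX array was above its control and each ALDH+ array above its ALDH- partner, with a fraction difference of 1.07 ± 0.25 (SE, limma adjusted p = 0.0101). The direction rests on that probe set. A second GBP2 probe set read 5.39, 6.49, 6.51 and 6.78, which puts ALDH+ control lowest, and the mean of both gave 0.18 and did not pass. GBP1, the neighbour of GBP2, differed by -0.51 and -0.28 and did not pass. Its other probe sets at a level of 6 differed by -0.14 and -0.03 without DOX and by 0.04 and 0.48 with it.

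ISG15 is a ubiquitin-like modifier, which HERC5 attaches to newly made proteins and USP18 removes. HERC5 stood at 7.60 in ALDH+ control and at 5.88, 4.98 and 4.61 in ALDH+ DOX, ALDH- control and ALDH- DOX. The ALDH+ control array was the only one above 6, so the fraction difference of 2.62 (1.60 with levels under 6 set to 6) was measured without DOX alone. The model gave 1.94 ± 0.34 (SE, limma adjusted p = 0.00171), an estimate that rests on that array and on levels under 6. With these set to 6 it was 0.80, with an adjusted p of 0.727 in limma. USP18, which also restrains the type I receptor, was at 6.39, 5.97, 7.25 and 6.99. Both ALDH+ arrays were lower, by -0.94 ± 0.28 (SE, limma adjusted p = 0.03). ISG15 itself differed by 0.30 and 0.37 and HERC6, next to HERC5 on chromosome 4, by 0.20 and 0.58, and neither passed.

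RSAD2 (viperin, an enzyme that makes a chain-terminating nucleotide) was high in ALDH+ cells alone. Its probe set read 7.94 in ALDH+ control, 7.11 in ALDH+ DOX, 4.31 in ALDH- control and 4.41 in ALDH- DOX. The ALDH- arrays were under 6, so the sizes of 3.62 and 2.70 are uncertain and became 1.94 and 1.11 with levels under 6 set to 6. The model gave 3.16 ± 0.31 (SE, limma adjusted p = 3.22e-05). A second RSAD2 probe set was at 5.86, 6.15, 3.99 and 3.91, with the same order of fractions. CMPK2, a mitochondrial nucleotide kinase that lies beside RSAD2 on chromosome 2 and shares the match named above, reached at most 4.79, in ALDH+ control.

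ISG20, an exonuclease that degrades viral RNA, was at 7.76 and 8.23 in the ALDH+ arrays and at 6.30 and 6.21 in the ALDH- arrays. All were above 6 and the fractions did not overlap, with a difference of 1.74 ± 0.29 (SE, limma adjusted p = 0.00126). Its second probe set differed by 1.68 and 1.69. SAMD9, a restriction factor of poxviruses, differed by -0.68 and -0.19, and the ubiquitin ligase TRIM22 by 0.57 and 0.61. Neither passed.

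IFITM1, IFITM2 and IFITM3 sit in membranes and hinder virus fusion, and they lie side by side on chromosome 11. IFITM1 stood at 11.41, 11.82, 10.59 and 10.68, so that both ALDH+ arrays were higher, by 0.98 ± 0.18 (SE, limma adjusted p = 0.00281). IFITM3 was at 13.17, 13.45, 12.83 and 12.89, a smaller difference in the same direction of 0.45 ± 0.09 (SE, limma adjusted p = 0.0036). IFITM2 was at 11.77, 12.14, 11.41 and 11.46, and differed by 0.52 ± 0.15 (SE, limma adjusted p = 0.0289). Their representing probe sets are of the shared kind, whose probes can match related transcripts, so that the signals of the 3 genes are uncertain, and none was left once that kind was removed. BST2 (tetherin, which holds budding virus at the cell surface) differed by -0.13 without and 0.61 with DOX and did not pass.

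The IFI genes are named for their induction. IFI35, a binding partner of NMI, stood at 8.47, 8.96, 7.81 and 7.91, higher in both ALDH+ arrays by 0.86 ± 0.27 (SE, limma adjusted p = 0.0398). IFI44 was at 10.54, 10.47, 11.23 and 11.19, lower in both ALDH+ arrays by -0.71 ± 0.19 (SE, limma adjusted p = 0.0203). Without probe sets of the shared kind IFI44 gave -0.19 with an adjusted p of 0.659 in limma. IFI6, a protein of the endoplasmic reticulum that hinders flavivirus replication, stood at 8.64 in ALDH+ control, 7.38 in ALDH+ DOX, 8.66 in ALDH- control and 8.82 in ALDH- DOX. The ALDH+ DOX array alone was low, which gave fraction differences of -0.02 without and -1.44 with DOX and an adjusted p of 0.135 in limma. IFI27 differed by 0.42 and 0.84 and IFI44L, next to IFI44 on chromosome 1, by -0.17 and 0.24, and neither passed.

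Of the transcription factors, IRF1 stood at 10.14 in ALDH+ control, 9.35 in ALDH+ DOX, 8.94 in ALDH- control and 9.02 in ALDH- DOX. The ALDH+ control array was the highest, and the fraction difference was 1.20 without and 0.33 with DOX, with an adjusted p of 0.0659 in limma. A second IRF1 probe set read 7.92, 7.39, 7.57 and 7.33, and the mean of both gave 0.77 in the control pair, under 2-fold. IRF7, the factor that amplifies type I interferon production, differed by 0.69 and 0.62, and IRF9, which binds the element together with STAT2, by 0.09 and 0.01. Neither passed.

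LGALS3BP, a secreted glycoprotein that binds galectin-3, stood at 10.69 in ALDH+ control, 11.88 in ALDH+ DOX and 10.38 in both ALDH- arrays. The ALDH+ DOX array was the high one, and the fraction difference was 0.31 without and 1.502 with DOX, or 0.91 ± 0.26 in the model (SE, limma adjusted p = 0.0238). That call was lost in 6 of 9 alternatives, with adjusted p-values in limma from 0.00592 to 0.565 over the 9. XAF1, an antagonist of the apoptosis inhibitor XIAP, was at 5.75, 6.11, 5.23 and 5.09. EPSTI1 was at 5.14, 6.03, 4.83 and 4.94. Both were called higher in the DOX pair, at 1.02 and 1.08, from levels at or under background, and with levels under 6 set to 6 these became 0.11 and 0.03. PARP9 and DTX3L, which form a ubiquitin ligase complex and lie side by side on chromosome 3, differed by -0.06 and 0.19 without DOX and by 0.27 and -0.14 with it, and neither passed. Another PARP9 probe set read 6.87, 7.65, 6.83 and 6.51. It differed by 0.04 without DOX and, past 2-fold, by 1.13 with DOX.

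Several genes had more than 1 probe set at a level of 6. In the control pair the probe sets had the same sign in 10 of 12 such members, in the DOX pair in 11 of 14. For the DOX difference they had it in 9 of 14 in ALDH+ cells and in 4 of 10 in ALDH- cells.

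**Figure D4:**
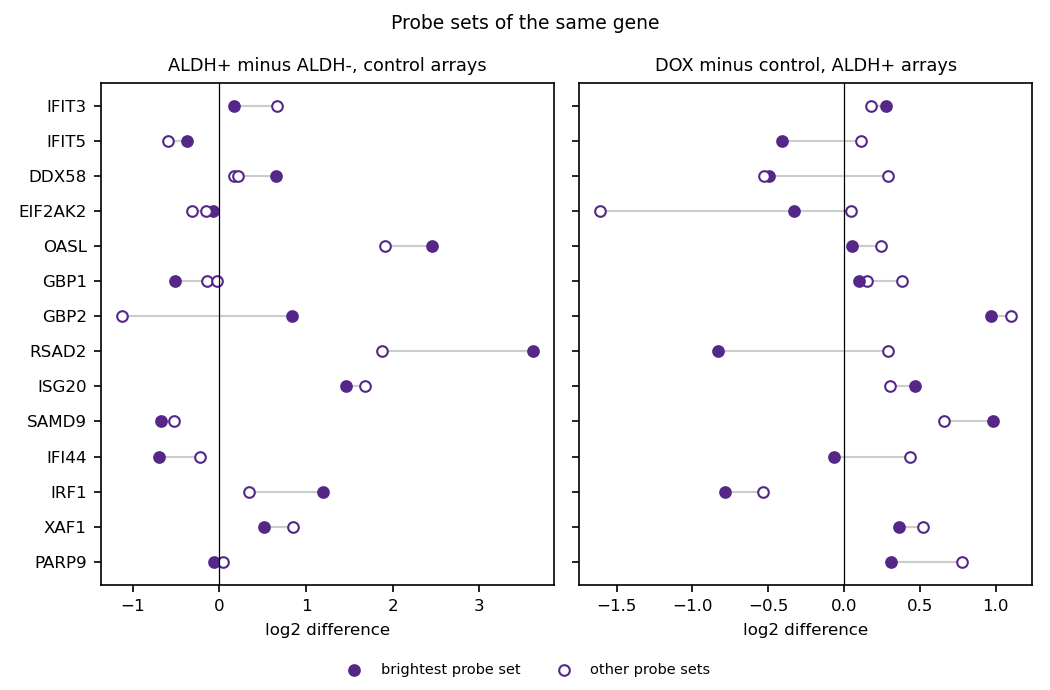
Log2 differences of single probe sets for members with more than 1 probe set at a level of 6, between ALDH+ and ALDH- control (left) and between DOX and control in ALDH+ cells (right); filled points are the brightest probe set, which represents the gene, and open points the others. RSAD2, OASL, ISG20 and IRF1 keep their side of 0 on the left, GBP2 has probe sets on both sides, and 1 EIF2AK2 probe set stands apart on the right at -1.61.

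DOX made few differences of 2-fold in the list. In ALDH+ cells 1 of 38 members was called higher with DOX, LGALS3BP at 1.19 (3.47% of all genes were), and 2 lower, HERC5 at -1.72 and IFI6 at -1.26 (2.3%). The median was 0.25 against 0.12 over all genes, and 0.11 against -0.02 once arrays were centred on their medians, where 2.18% and 3.19% of all genes were called higher and lower. RSAD2 differed by -0.83 and IRF1 by -0.79, short of 2-fold, and the second RSAD2 probe set went the other way, at 0.29. Of the 3 EIF2AK2 probe sets, 1 read 7.02 in ALDH+ control, 5.41 in ALDH+ DOX, 7.18 in ALDH- control and 7.22 in ALDH- DOX, a DOX difference of -1.61, whereas the brightest (11.61, 11.28, 11.69 and 11.63) differed by -0.33 and the third (10.68, 10.72, 11.00 and 10.96) by 0.04. ALDH+ DOX is also the array in which the end probe sets of 18S ribosomal RNA were low, as given above.

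In ALDH- cells 0 of 30 members were called higher (0.271% of all genes) and 0 lower (0.0508%), with a median of 0.07 against -0.00. The largest member differences there were 0.51 for GBP2 and 0.49 for SAMD9. The DOX difference in ALDH+ minus that in ALDH- cells was past 2-fold in 1 member upward, LGALS3BP at 1.19 (3.78% of all genes), and in 2 downward, HERC5 at -1.34 and IFI6 at -1.42 (2.4%). With 1 array a group this difference has no test. With arrays centred on their medians the lower side held 5 members, with IFIT1, RSAD2 and IRF1 added, and the share of all genes was 2.39% higher and 3.56% lower.

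The DOX term of the limma model passed in 0 members upward (0.00809% of all genes) and 0 downward (0%) and in none under any alternative run. At an unadjusted p under 0.05 it held 4 members, GBP2, HERC5, LGALS3BP and SAMD9, and 5.27% of all genes. The lowest adjusted p among members was 0.855. The ALDH+ DOX array was the highest of the 4 in 23 of 38 members (60.5%, against 41.9% of all genes), and ALDH- control the lowest in 19 of 38 (50%, against 22.9%).

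**Figure D5:**
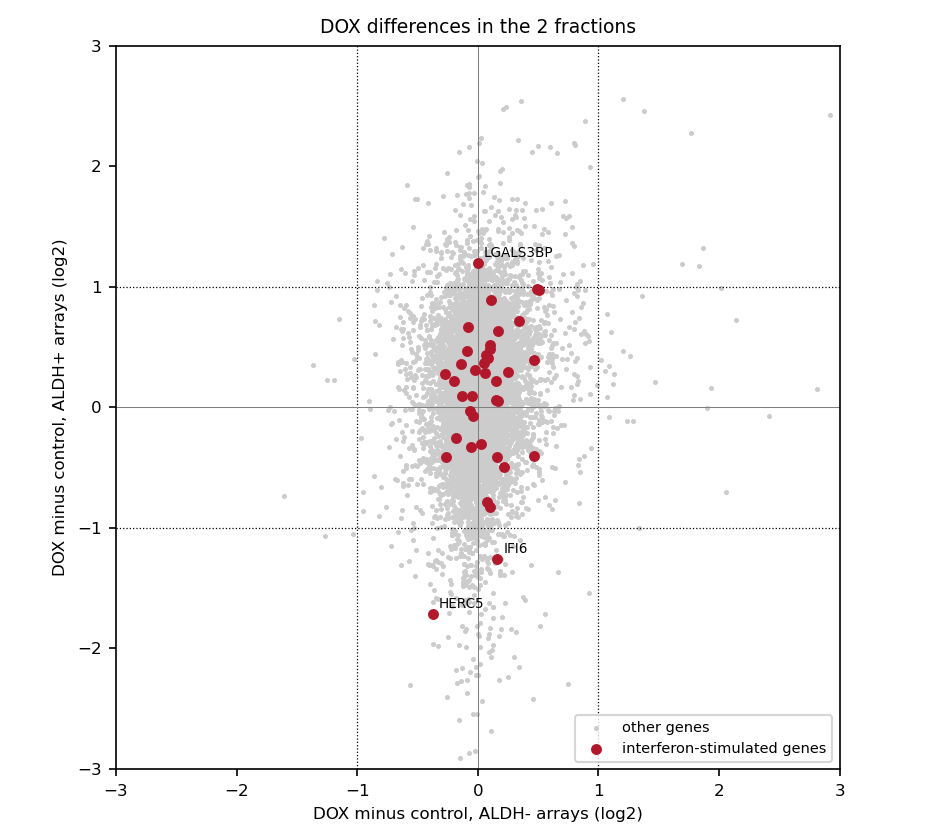
Log2 difference between DOX and control in ALDH- cells (x axis) and in ALDH+ cells (y axis) for all genes that reached 6 on any array, with interferon-stimulated genes in red; dotted lines are at 2-fold, and 8 genes lie outside the axes. LGALS3BP lies above the upper line and HERC5 and IFI6 below the lower one, and no member is past a line on the x axis.

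The rest of the pathway was read from 6 further lists. Of the interferons themselves, 18 had a probe set and 0 reached 6 in any array, the highest value being 4.99 in ALDH- DOX. The counts below are for the fraction term of the limma model, in which 13.5% of all genes rose and 9.58% fell. Of 8 measured genes for receptors and their kinases 0 rose in ALDH+ cells and 1 fell. That was IFNGR2, a chain of the interferon gamma receptor, at 10.45, 10.09, 10.94 and 11.36. IFNAR1, a chain of the type I receptor, differed by -0.62 and -0.30, the shared chain IL10RB by 0.44 and 0.52 and IFNLR1 by -0.31 and 0.04, and none of these passed.

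Among 15 measured sensors, adaptors and kinases upstream of interferon, 1 rose and 1 fell, no more than the shares of all genes. TRIM25, a ubiquitin ligase at 12.34, 12.15, 11.90 and 11.69, and the DNA sensor CGAS are named because they alone passed, after their values had been seen. CGAS read 8.76, 6.58, 8.91 and 8.73, so that ALDH+ DOX alone was low and the model estimate (limma adjusted p = 0.0496) rests on that array. By size in the control pair, the kinase IKBKE (-1.11), TLR4 (-1.01), the adaptor MYD88 (-0.87) and TICAM1 (0.61) led the list, and none of them passed.

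Of 10 measured negative regulators 1 rose, a share below that of all genes. It was SOCS2, at 8.95 and 9.42 in the ALDH+ and 7.10 and 7.33 in the ALDH- arrays, a difference of 1.97 ± 0.27 (SE, limma adjusted p = 0.000345). SOCS1, the suppressor of JAK signalling, differed by -0.50 and 0.18, and it, PIAS4 and PTPN2 did not pass. Of 32 other interferon-stimulated genes measured, 6 rose and 2 fell, against 13.5% and 9.58% of all genes. DDX60, a helicase that assists RIG-I, stood at 10.55 and 10.53 in the ALDH+ and 8.88 and 8.78 in the ALDH- arrays. LAMP3, a lysosomal membrane protein, was at 8.16, 8.89, 6.32 and 5.17, and STARD5 at 7.04, 7.38, 5.86 and 6.49, both higher in the ALDH+ arrays. SAMHD1, which depletes nucleotides needed by retroviruses, was at 8.91, 9.55, 10.13 and 10.16 and fell, as did the nucleotidase NT5C3A, at 10.69, 10.19, 11.27 and 11.05, named because the count is small. Of 7 measured interferon gamma-induced genes 2 rose, where 13.5% of all genes did. The adhesion molecule ICAM1 was at 10.70, 10.39, 9.29 and 9.39, and the tryptophan-tRNA ligase WARS1 at 12.10, 12.33, 11.50 and 11.60. The chemokine CXCL10, at 6.97, 5.91, 6.23 and 5.19, was lower in both DOX arrays and did not pass for the fraction, and GBP3 differed by -0.53 and 0.02.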

How the data were processed

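RNA of 4 groups of SUM159 cells was hybridised to Affymetrix arrays, 1 array a group, and the number of arrays limits the precision. The deposited values are log2 probe set levels, made by the authors with RMA per the submitters' processing notes (version not given in the sources used here), which corrects background, normalises quantiles and summarises probes. They were used as deposited. Probe sets were named from an array annotation of 2016, 41097 of them with 1 gene, and symbols were updated through RefSeq GRCh38.p14. Gene neighbours, promoters and the miRNA are from the same RefSeq release.

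Differences between arrays were called at 2-fold where either one reached 6. The additive model was fitted in R 4.3.3 by lmFit of limma 3.58.1 and moderated by eBayes with a trend, with two-sided p-values, Benjamini-Hochberg adjustment over 12365 genes and a threshold of 0.05. Its prior had 11.6 degrees of freedom. The model fit was tested on simulated data with constant noise, taken from the ALDH- pair, and no DOX response. That test cannot show how the fit treats a DOX response that differs between fractions. Other calculations used Python 3.11.15, numpy 2.4.6 and pandas 2.3.3.

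The members, gene lists and thresholds were chosen with earlier results of these data known. Members called in any pair, passing the model, or with probe sets that disagree past 2-fold are given with all 4 values. From each further list up to 4 genes are named by size in the control pair, and TRIM25, CGAS and NT5C3A were added after their values were seen, because few genes of their list passed. Alternatives were centring of arrays, cyclic loess, no filter, a level of 7, a floor of 6 for lower levels, averaging of probe sets, removal of shared probe sets (those with _x_at or _s_at names), calls at 1.5-fold, and eBayes without trend or robust.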

Additional observations from a re-analysis of the deposited data

Results flagged for a closer look

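For a pair of members the DOX difference had opposite signs in the fractions and was past 2-fold between them. LGALS3BP gave 1.19 as the DOX difference in ALDH+ minus that in ALDH- cells, and IFI6 gave -1.42. The difference between fractions was not tested, since each group had 1 array. LGALS3BP in ALDH- cells was at 10.38 in both arrays, so that its sign there rests on a difference that rounds to 0.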

How the results depend on the processing

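No called difference of a member reversed under any alternative. Only centring, cyclic loess, averaging of probe sets and removal of shared probe sets could reverse the difference of a pair of arrays. The other settings leave that difference as it is or, with the floor, can only shrink it. At 1.5-fold, which calls more by construction, the control pair held 15 members higher (13.8% of all genes) and 4 lower (12.3%) in ALDH+ cells, the DOX pair 20 higher (22.9%) and 5 lower (12.6%), the DOX comparison in ALDH+ cells 7 higher (14.6%) and 4 lower (6.81%), and the difference between the DOX differences 3 higher (14.8%) and 6 lower (7.5%). With arrays centred, 9 members were higher in the DOX pair (9.22% of all genes) and 4 lower (6.91%). At a level of 7, 9 of 31 were higher there (11.1%) and 1 lower (5.5%). With levels under 6 set to 6, 9 of 42 were higher (6.09%) and 1 lower (3.03%). These are shares of all 19775 genes, those under 6 in every array included. Centring gave 5 lower in the difference between the DOX differences (3.56%). The mean of probe sets gave 2 higher in the DOX comparison of ALDH+ cells, GBP2 being added. Removal of shared probe sets gave 2 higher in the difference between the DOX differences, PARP9 being added. The shares of all genes under those last settings are not given here. In the model's ALDH term 9 rose and 0 fell without a filter, a setting that tests more genes. The share of all genes there is not given here. With levels under 6 set to 6, which leaves some genes without spread, 0 rose and 0 fell. The cause of these and of the other shifts was not tested. Centring moved the median of all genes from 0.08 to -0.04 in the DOX pair. No paired analysis was possible because the labels give no replicate numbers, beyond the additive model, which compares the fractions within each treatment. No array could be left out, since the model would then have no residual degrees of freedom. Signals under 6 limit the sizes for RSAD2, IFIT1 and HERC5.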

Other observations

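Members of the list also appear on probe sets that the annotation gives to a pair of genes, which were left out above. One annotated to IFITM2 and IFITM1 read 11.38 in ALDH+ control, 11.88 in ALDH+ DOX, 10.59 in ALDH- control and 10.66 in ALDH- DOX. One annotated to IRF9 and its neighbour RNF31 read 8.40, 9.10, 8.08 and 7.89, with a fraction difference of 0.33 without and 1.20 with DOX, whereas the probe set of IRF9 alone differed by 0.09 and 0.01.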
